A study of Mus musculus with 12 samples.

Results

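The 41 genes described here encode proteins that copy DNA and carry cells through S phase. They were chosen by name, as the rows of the count table whose symbol is one of 41 listed replication and S phase genes. All 41 had a single row among the 55450 genes of the table. The bulk RNA-seq libraries were made from outer kidney cortex taken at 12 weeks of age from 12 mice of the FVB/N background, in 4 groups of 3. The groups were C16-treated Tg26 mice, untreated Tg26 mice, C16-treated wild-type (WT) mice and untreated WT mice. Tg26 mice are hemizygous for a partial HIV-1 provirus driven by the viral long terminal repeat, and they develop a collapsing kidney disease that is a model of HIV-associated nephropathy. C16 is an inhibitor of PKR, a kinase that senses dsRNA. It was injected into the abdomen at 10 µg/kg in dilute DMSO, on several days of each week from week 6 to week 12. The labels call the untreated mice controls and do not say whether they were injected with vehicle. Males and females were studied, and the labels do not give the sex of each mouse. A list of 4 Y-linked genes summed to 114 to 191 CPM (counts scaled to library size) in the 12 libraries, and none was near 0.

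Before a cell divides, replication origins are licensed by the origin recognition complex, CDC6 and CDT1, which load the ring-shaped MCM helicase onto DNA. At the start of S phase, CDC45 and the GINS complex switch the helicase on, primase and the DNA polymerases copy the strands, and PCNA clamps the polymerases to the template. E2F transcription factors, held back by RB proteins in resting cells, turn on most of these genes. Nearly all cells of a healthy adult kidney rest, and tubular cells re-enter the cell cycle when the tubule is injured.

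Total counts were 19877877 to 27000388 per library, and members took 0.0253% to 0.0770% of them. Levels are in CPM, counts relative to the library size after TMM scaling. Differences were tested by quasi-likelihood in edgeR with the 12 libraries in 1 fit, and a difference is called where the adjusted p (Benjamini-Hochberg, over the 16094 genes with enough counts to test) was under 0.05. Orc1, the largest subunit of the origin recognition complex, was below the filter, with 2 to 32 counts per library, so 40 members were tested. In whole tissue, fewer cells in S phase and less RNA per cycling cell cannot be told apart. Tg26 replicate 1 stood apart from the other Tg26 libraries. It had the highest value of the 12 libraries in 33 of 40 members, against 26.5% of all tested genes. Calls that changed when it was left out are given both ways.

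A sequence motif that was not used to choose the genes was more frequent in their promoters than over all genes, although most members lacked it. RefSeq promoters (build GRCm38.p6, 250 bases before to 50 after each start) were matched by symbol for 35 of the 41 members. Mcm4, Gins1, Gins2, Gins4, Pole and Ccne2 were not matched. The E2F motif was searched as TTTCCCGC, TTTCGCGC, TTTGCCGC or TTTGGCGC on either strand. It was found in 14 of the 35 promoters (40.0%) and in 704 of 27025 genes with a promoter (2.60%). The 27025 genes were not limited to those tested in the cortex. A higher share could be foreseen, as E2F factors turn on most of these members, and the difference was not tested. Of the 10 members that were called higher in Tg26 mice below, 8 held it, and of the 25 other members with a promoter, 6 held it. Both members that were still called without Tg26 replicate 1 held it. The CCAAT box, CCAAT on either strand, was found in 65.7% of member promoters and in 41.1% of all genes. The CHR element of mitotic genes, TTTGAA or TTCGAA on either strand, was found in 25.7% and 21.7%. Of the 10 called members 8 held a CCAAT box and 2 a CHR element, and of the 25 others 15 and 7. No split of a motif between called and other members was tested. A match is a run of letters and not a measured binding site. The motif of 5 called members lay upstream of the start and outside annotated exons, and 60 bases around each are printed to show them in context, read on the strand of the gene with the E2F motif in capitals. Where a match on one strand overlaps one on the other, as in Mcm5 and in the first Mcm6 window, the capitals cover both. Mcm6 held another match nearer the start. On GRCm38, the Mcm5, Mcm6 and Pola1 windows lie in no gene annotated in GENCODE M21, and those of Uhrf1 and Cdc6 lie in an intron of a longer transcript of the same gene.
Uhrf1 (chr17:56304102-56304161, plus strand, motif from 185 bases before the start): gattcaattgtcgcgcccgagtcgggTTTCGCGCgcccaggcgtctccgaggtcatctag
Mcm6 (chr1:128359782-128359841, minus strand, motif from 110 bases before the start): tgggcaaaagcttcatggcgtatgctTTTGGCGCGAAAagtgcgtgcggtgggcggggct
Mcm6 (chr1:128359719-128359778, minus strand, motif from 47 bases before the start): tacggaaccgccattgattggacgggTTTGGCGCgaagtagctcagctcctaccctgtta
Mcm5 (chr8:75109330-75109389, plus strand, motif from 153 bases before the start): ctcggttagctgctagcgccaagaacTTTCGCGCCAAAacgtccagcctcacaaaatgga
Pola1 (chrX:93632260-93632319, minus strand, motif from 138 bases before the start): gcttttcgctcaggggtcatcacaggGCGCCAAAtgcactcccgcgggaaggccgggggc
Cdc6 (chr11:98907987-98908046, plus strand, motif from 138 bases before the start): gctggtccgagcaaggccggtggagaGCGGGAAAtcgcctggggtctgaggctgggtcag

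The first question was whether replication genes differ between the diseased and the healthy cortex. In Tg26 mice 10 of 40 members rose and none fell: Cdc6, Dnmt1, E2f8, Lig1, Mcm3, Mcm5, Mcm6, Pola1, Rrm1 and Uhrf1. Of all tested genes, 15.7% were called higher and 10.5% lower in this comparison. The median log2 fold change of the members was 0.46, against -0.01 over all genes, and 34 of 40 were positive. It ranged from -0.68 for Mcm10 to 2.11 for Uhrf1. The unadjusted p was under 0.05 in 18 members. Over all 16094 tested genes, the unadjusted p was under 0.05 in 3416 higher and 2874 lower genes. Without Tg26 replicate 1, 2 members were called (Mcm3 and Uhrf1, both among the 10), the median was 0.12 and 25 were positive, and 10.3% of all genes were called higher. All 3 Tg26 mice were above all 3 WT mice in 9 members, against 21.5% of all genes. These were Dnmt1, E2f8, Fen1, Lig1, Mcm3, Mcm6, Pola1, Rrm1 and Uhrf1.

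The summed level of the 40 tested members was 630, 367 and 348 CPM in Tg26 mice, against 282, 362 and 381 CPM in WT mice. Only Tg26 replicate 1 was clear of the WT range, and the other Tg26 mice lay within it. The median over members of the ratio of Tg26 replicate 1 to the mean of the other Tg26 mice was 1.70, against 1.001 over all tested genes. Spread among the WT mice was also shared by the members. WT replicate 1 was the lowest WT mouse in 32 of 40 members, against 39.8% of all genes, and without it 2 members were called, Mcm3 and Uhrf1.

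**Figure D1:**
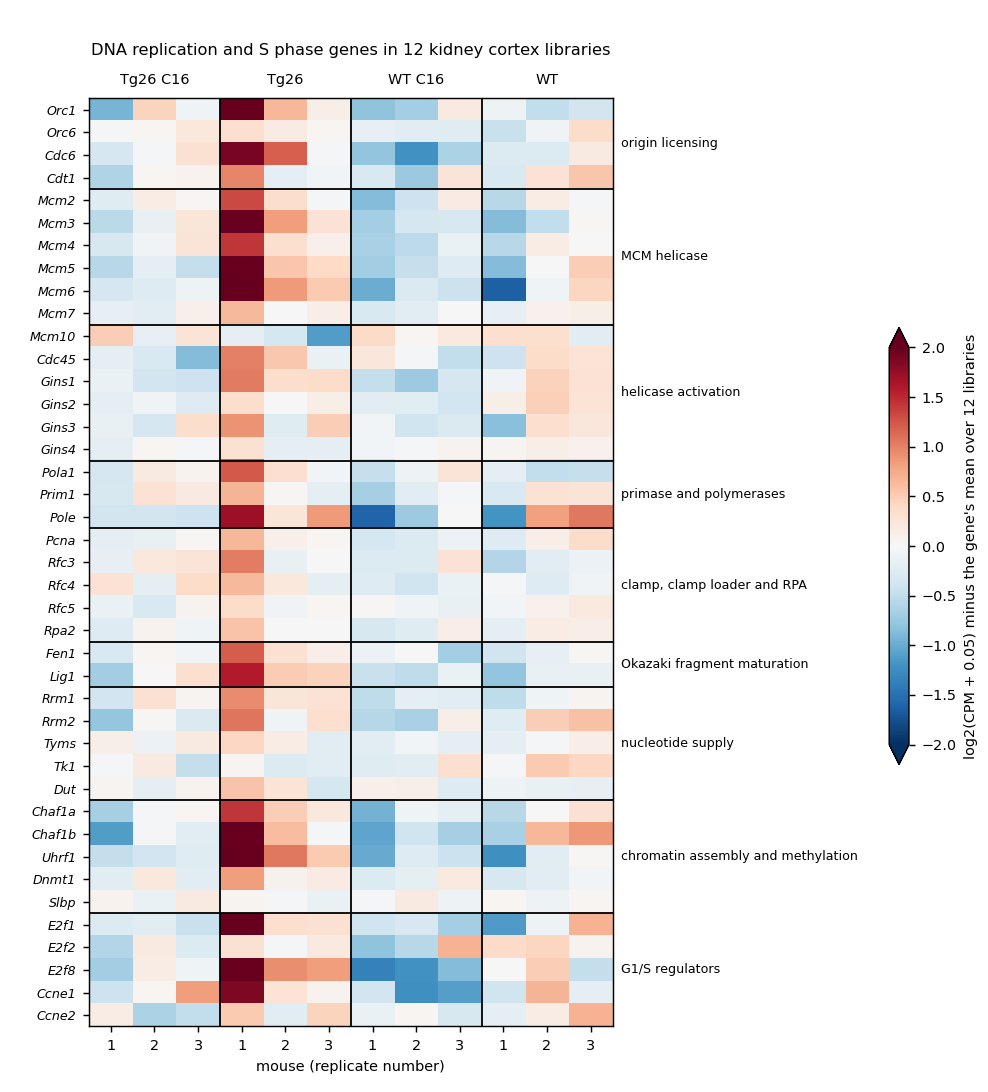
Level of each of the 41 members (rows, grouped by role) in each library (columns), as log2(CPM + 0.05) minus the gene's mean over the 12 libraries; colours stop at 2 in either direction. The dark red column is Tg26 replicate 1, which was the highest of 12 libraries in 33 of 40 tested members, and Mcm10 runs the other way.

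The largest change was in Uhrf1 (chr17:56303321-56323486), which encodes a reader of hemimethylated DNA that brings the maintenance methyltransferase DNMT1 to newly copied strands. Uhrf1 had 28.3, 9.28 and 6.44 CPM in Tg26 mice, against 1.88, 3.80 and 4.53 CPM in WT mice. The groups did not overlap, and Tg26 replicate 1 was far above the other Tg26 mice. The log2 fold change was 2.11 ± 0.49 (SE, adjusted p = 0.0099), and 1.20 without Tg26 replicate 1 (adjusted p = 0.030). Its partner Dnmt1 had 41.9, 25.0 and 26.2 CPM in Tg26 mice, against 18.8, 20.2 and 22.5 CPM in WT mice. The Dnmt1 ranges did not overlap either, with a smaller log2 fold change of 0.60 ± 0.20 (adjusted p = 0.047). The call was lost without Tg26 replicate 1 (0.31, adjusted p = 0.24). Chaf1a and Chaf1b encode subunits of the chromatin assembly factor that puts histones on new DNA, and Slbp encodes the protein that binds the stem-loop of replication histone mRNAs. None of the 3 passed, with log2 fold changes of 0.86 for Chaf1a, 0.73 for Chaf1b and -0.03 for Slbp.

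Of the 6 subunits of the MCM helicase, which unwinds the DNA ahead of the fork, 3 rose (Mcm3, Mcm5 and Mcm6). Its genes summed to 160, 75.8 and 68.1 CPM in Tg26 mice, against 42.2, 61.3 and 66.4 CPM in WT mice, so all Tg26 mice were above the WT mice, the lowest of them by little. Mcm3 had 20.8, 9.39 and 6.41 CPM in Tg26 mice, against 2.84, 3.71 and 5.30 CPM in WT mice. Its log2 fold change was 1.63 ± 0.39 (adjusted p = 0.012), and 0.99 without Tg26 replicate 1 (adjusted p = 0.043). Mcm6 had 26.1, 9.42 and 7.51 CPM in Tg26 mice, against 1.65, 4.94 and 7.08 CPM in WT mice. The Mcm6 groups came close without overlapping, and its log2 fold change of 1.66 ± 0.51 (adjusted p = 0.032) became 0.89 (adjusted p = 0.19) when Tg26 replicate 1 was left out. Mcm5 had 28.0, 9.87 and 8.80 CPM in Tg26 mice, against 3.62, 6.67 and 9.44 CPM in WT mice. Here the lowest Tg26 mouse was below the highest WT mouse, and the call (1.25 ± 0.42, adjusted p = 0.049) did not hold without Tg26 replicate 1 (0.50, adjusted p = 0.31). The other subunits had log2 fold changes of 0.86 for Mcm4, 0.79 for Mcm2 and 0.27 for Mcm7, and none passed.

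Of the licensing genes, Cdc6 was called. CDC6 loads the MCM ring onto the origin. Cdc6 had 2.67, 1.62 and 0.66 CPM in Tg26 mice, against 0.55, 0.55 and 0.77 CPM in WT mice. The lowest Tg26 mouse lay inside the WT range, and the log2 fold change was 1.41 ± 0.45 (adjusted p = 0.040), or 0.87 (adjusted p = 0.21) without Tg26 replicate 1. Orc6, another subunit of the origin recognition complex, had 5.67, 5.05 and 4.64 CPM in Tg26 mice, against 3.30, 4.31 and 5.83 CPM in WT mice. Neither Orc6 nor Cdt1, the partner of CDC6 in loading, passed the test, with log2 fold changes of 0.20 and 0.13. The untested Orc1 had 32, 10 and 6 counts in Tg26 mice, against 4, 3 and 3 counts in WT mice.

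Helicase activation had no member called, and 3 of its 6 genes had positive and 3 negative fold changes. MCM10, which helps the assembled helicase to start, was the member with the most negative fold change. Mcm10 had 6.54, 5.81 and 3.42 CPM in Tg26 mice, against 9.47, 9.37 and 6.45 CPM in WT mice. The highest Tg26 mouse was just above the lowest WT mouse, and the log2 fold change of -0.68 ± 0.25 missed the threshold (adjusted p = 0.067), while DESeq2 called it. It was -0.87 (adjusted p = 0.052) without Tg26 replicate 1. Gins1, a subunit of the GINS ring, had 2.63, 1.62 and 1.62 CPM in Tg26 mice, against 1.19, 1.73 and 1.54 CPM in WT mice. Its log2 fold change was 0.40 ± 0.27 (adjusted p = 0.31). The other GINS genes had log2 fold changes of 0.48 for Gins3, -0.14 for Gins2 and -0.09 for Gins4, and Cdc45 had 0.44.

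Among the genes that make DNA, Pola1 and Lig1 rose. POLA1 is the catalytic subunit of the polymerase that starts each strand. Pola1 had 10.3, 5.54 and 4.23 CPM in Tg26 mice, against 3.89, 3.12 and 3.18 CPM in WT mice. The ranges did not overlap (log2 fold change 0.98 ± 0.31, adjusted p = 0.038), and without Tg26 replicate 1 the value was 0.52 (adjusted p = 0.20). Pole, the catalytic subunit of the leading-strand polymerase, had 6.51, 2.30 and 3.53 CPM in Tg26 mice, against 0.82, 3.46 and 4.09 CPM in WT mice. WT mice were as spread as Tg26 mice, and the log2 fold change of 0.56 ± 0.53 was close to its SE and did not pass (adjusted p = 0.47). Prim1, the small primase subunit, had 0.12.

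Both genes that join Okazaki fragments had unadjusted p under 0.05. LIG1 seals the nicks between the fragments. Lig1 had 17.3, 8.15 and 7.91 CPM in Tg26 mice, against 3.30, 5.19 and 5.20 CPM in WT mice. All Tg26 mice were clear of the WT range (log2 fold change 1.29 ± 0.34, adjusted p = 0.017), and without Tg26 replicate 1 the value was 0.81 (adjusted p = 0.079). Fen1, the flap nuclease that acts before the ligase, had 14.9, 7.87 and 6.99 CPM in Tg26 mice, against 4.81, 5.70 and 6.50 CPM in WT mice. Its groups did not overlap, and its log2 fold change of 0.81 ± 0.28 lay at the threshold (adjusted p = 0.05005).

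None of the clamp, clamp loader and RPA genes passed. Rfc3, a small subunit of the clamp loader, had 7.10, 3.13 and 3.50 CPM in Tg26 mice, against 2.29, 2.95 and 3.18 CPM in WT mice. Its log2 fold change was 0.71 ± 0.31 (adjusted p = 0.11), with 1 Tg26 mouse inside the WT range. Rfc4, from the same complex, had 5.24, 3.89 and 2.91 CPM in Tg26 mice, against 3.30, 2.79 and 3.18 CPM in WT mice. Its ranges overlapped too, with 0.38 ± 0.23 on the log2 scale (adjusted p = 0.26). Pcna, the clamp itself and a common proliferation marker, had 58.5, 39.6 and 38.0 CPM in Tg26 mice, against 30.9, 40.2 and 47.3 CPM in WT mice. Only Tg26 replicate 1 was above the WT range, and the log2 fold change was 0.20 ± 0.18 (adjusted p = 0.43). Rpa2, a subunit of the protein that coats unwound DNA, had 0.17 and Rfc5 had 0.04.

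In nucleotide supply, Rrm1 rose. RRM1 and RRM2 are the subunits of ribonucleotide reductase, which makes deoxyribonucleotides. Rrm1 had 26.2, 16.2 and 16.7 CPM in Tg26 mice, against 9.57, 12.9 and 14.3 CPM in WT mice. The ranges did not overlap (log2 fold change 0.69 ± 0.23, adjusted p = 0.043), and without Tg26 replicate 1 the value was 0.42 (adjusted p = 0.21). Tk1, the thymidine salvage kinase, had 23.0, 18.2 and 19.0 CPM in Tg26 mice, against 21.5, 31.8 and 29.6 CPM in WT mice. Its log2 fold change was negative, -0.46 ± 0.21, and did not pass (adjusted p = 0.12). Dut, Rrm2 and Tyms, which encode a dUTPase, the small reductase subunit and thymidylate synthase, had 0.36, 0.20 and 0.16.

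Of the G1/S regulators, E2f8 rose. E2F8 is an atypical E2F that represses E2F targets later in S phase. E2f8 had 2.97, 1.10 and 1.03 CPM in Tg26 mice, against 0.55, 0.80 and 0.39 CPM in WT mice. The ranges did not overlap, at levels near 1 CPM (log2 fold change 1.55 ± 0.47, adjusted p = 0.031), and without Tg26 replicate 1 the value was 0.86 (adjusted p = 0.18). E2f1, an activating E2F, had 14.8, 3.99 and 3.90 CPM in Tg26 mice, against 1.42, 2.95 and 5.15 CPM in WT mice. Tg26 replicate 1 alone was above the WT range, and the log2 fold change of 1.25 ± 0.52 did not pass (adjusted p = 0.095). The cyclins that drive entry into S phase had 0.91 for Ccne1 and 0.03 for Ccne2, and E2f2 had -0.14.

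**Figure D2:**
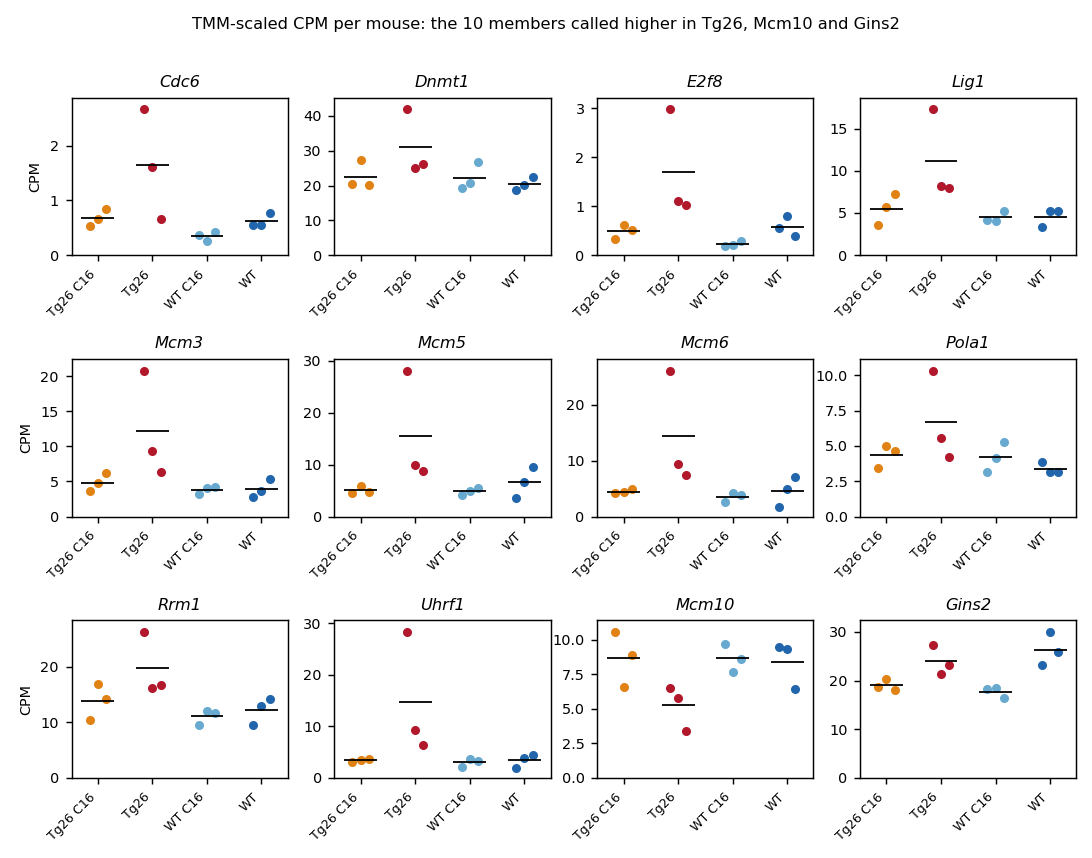
TMM-scaled CPM of 12 members in each mouse (points) with the group mean (line), from left to right C16-treated Tg26, Tg26, C16-treated WT and WT mice. In the 10 members called higher in Tg26 mice the highest point is Tg26 replicate 1, while Mcm10 was lower in Tg26 mice without passing the test and Gins2 was lowest in the C16-treated groups.

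**Figure D3:**
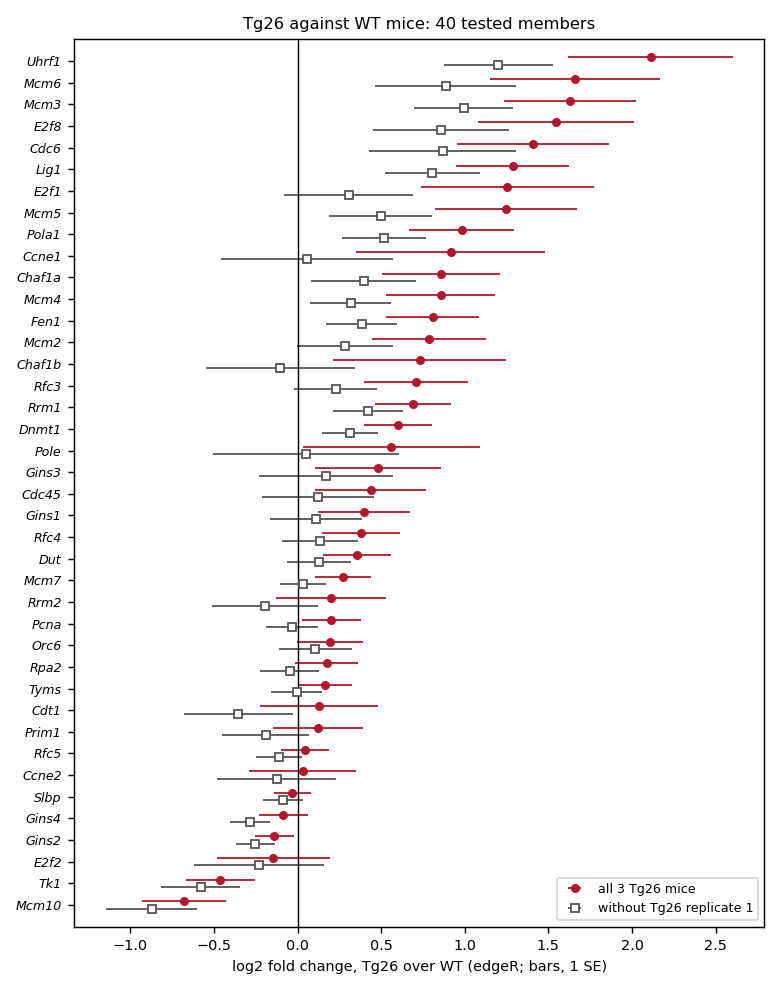
Log2 fold change of Tg26 over WT mice for the 40 tested members, with 1 SE, from the fit of all libraries (filled circles) and from the fit without Tg26 replicate 1 (open squares). The median moved to 0.12 without that library, against 0.46 with it, and Mcm3 and Uhrf1 stayed past the threshold.

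Members that were scarce in WT cortex had the larger fold changes. Per kilobase of exon, the highest WT levels were those of Pcna (16.5 CPM per kb), Gins4 (7.30), Gins2 (6.43), Mcm7 (5.68) and Tk1 (5.32), and the lowest tested were E2f8 (0.106) and Cdc6 (0.119). Across the 40 members, log2 WT level per kb and log2 fold change had Pearson's r = -0.53 and Spearman's rho = -0.59. The members share libraries and the WT level enters both axes, so this is a description. Among the 20 members with the lower WT levels the median log2 fold change was 0.79 and 8 were called. Among the 20 with the higher levels it was 0.20 and 2 were called, Dnmt1 and Mcm5. Without Tg26 replicate 1 the medians were 0.27 and -0.02, with 2 and 0 members called, and r was -0.46 and rho -0.49.

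**Figure D4:**
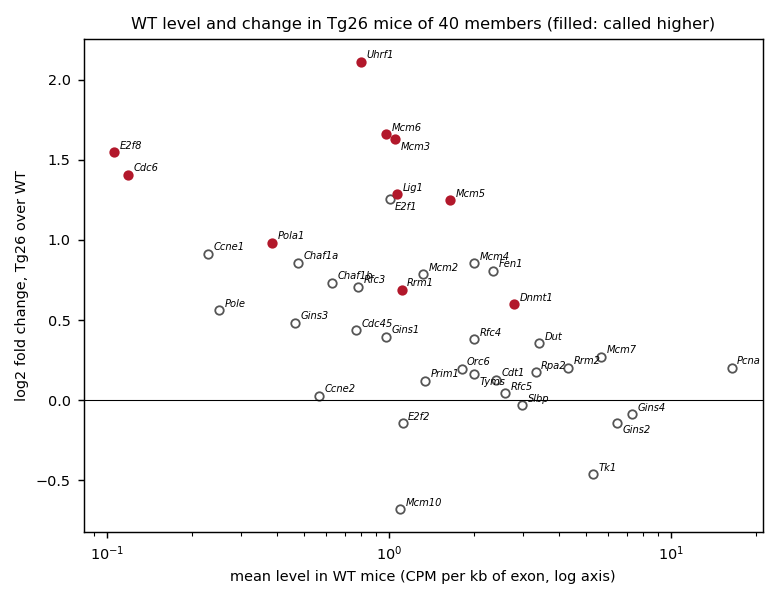
Mean WT level of each tested member in CPM per kb of exon (log axis) against its log2 fold change in Tg26 mice; filled points were called higher. Uhrf1, Mcm3, Mcm6, E2f8 and Cdc6 lie at the upper left, and Pcna, Gins4, Gins2, Mcm7 and Tk1, at 5.32 CPM per kb or more in WT mice, lie between -0.46 and 0.27.

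Other genes of the cycle were listed by role for comparison. Of 61 tested replication genes outside the members, 13 rose and 3 fell in Tg26 mice, with a median log2 fold change of 0.28. When Tg26 replicate 1 was left out, 6 rose and 2 fell, with a median of 0.08. Timeless, a fork protection factor, had 9.98, 7.22 and 5.96 CPM in Tg26 mice, against 2.88, 2.66 and 3.13 CPM in WT mice and rose by 1.42 ± 0.20 on the log2 scale (adjusted p = 0.00080). Its ranges lay far apart, and the call held without Tg26 replicate 1 (adjusted p = 0.0015). Pold1, the lagging-strand polymerase, and Cdca7, which is needed for DNA methylation at repeats, rose by 1.45 and 2.51 (log2), and both calls held without that library. Among those that fell were Orc3 (-0.41), a subunit of the origin recognition complex, and Usp1 (-0.32), which encodes a deubiquitinase that acts on PCNA. The call of Orc3 held without Tg26 replicate 1 and that of Usp1 was lost (adjusted p = 0.076). Orc3 was at 25.8, 25.7 and 25.3 CPM in Tg26 mice, against 33.9, 33.3 and 34.5 CPM in WT mice.

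The median change of the 30 mitosis genes was larger than that of the members, a difference that was not tested. In Tg26 mice 23 of 30 rose and none fell, with a median log2 fold change of 1.71, and 8 rose, with a median of 1.12, without Tg26 replicate 1. Mki67, the gene of the Ki-67 proliferation antigen, had 27.1, 11.6 and 10.9 CPM in Tg26 mice, against 1.97, 3.59 and 5.68 CPM in WT mice. On the log2 scale Bub1b, a spindle checkpoint kinase gene, rose by 2.22, Cdca8, of the chromosomal passenger complex, by 1.89 and Ccnb2, a mitotic cyclin gene, by 1.58. Of 31 tested E2F, RB and CDK regulators 3 rose and 3 fell. Those that rose were Ccnd2 (1.13) and Cdk6 (0.83), a cyclin D and its kinase, and Cdkn2b (3.87), an inhibitor of that kinase that was at 0 counts in 2 WT mice. Those that fell were Rbl2 (-0.67), the gene of an RB family protein of resting cells, Tfdp2 (-0.41), an E2F partner, and Ccnd3 (-0.33). The calls of Ccnd2, Cdkn2b and Rbl2 held without Tg26 replicate 1, and the others were lost.

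Markers of other cells moved with genotype and with Tg26 replicate 1. All 13 macrophage markers were called higher in Tg26 mice, and they summed to 1205, 796 and 702 CPM there, against 136, 117 and 102 CPM in WT mice. All 9 tested injured tubule markers and all 8 fibroblast and pericyte markers were called higher, and 10 of 15 proximal tubule markers were called lower. Without Tg26 replicate 1 the called markers were 12 of 13 macrophage, 8 of 9 injured tubule and 8 of 8 fibroblast and pericyte markers higher, and 7 of 15 proximal tubule markers lower. The proximal tubule markers summed to 18854, 38547 and 34485 CPM in Tg26 mice, against 58022, 55334 and 52078 CPM in WT mice. The lowest proximal tubule sum and the highest macrophage sum were both in Tg26 replicate 1. Of the tested T cell markers 1 of 9 was called higher, and of the B cell and plasma cell markers 0 of 8. Which cells carried the replication transcripts was not tested.

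**Figure D5:**
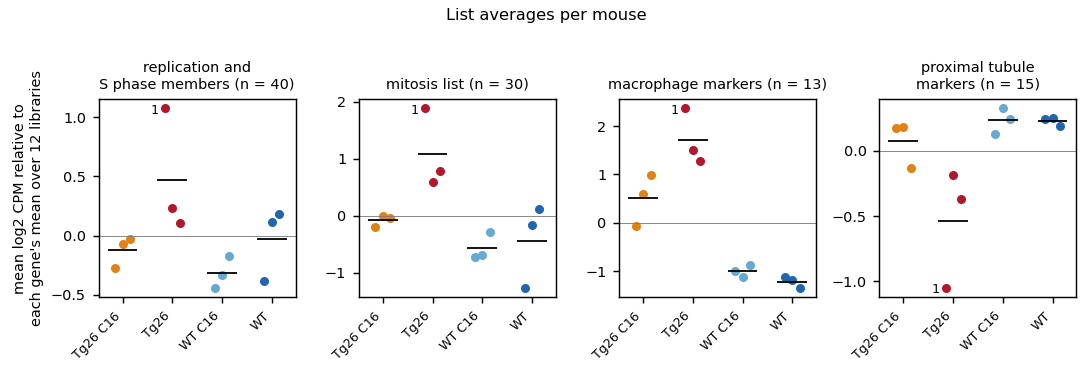
Average of log2 CPM over each list in each mouse (points), every gene centred on its mean of the 12 libraries, with the group mean (line), for the members, the mitosis list, macrophage markers and proximal tubule markers; the label 1 marks Tg26 replicate 1. For the members that mouse was at 1.07, and the other Tg26 mice, at 0.23 and 0.11, were near the 2 higher WT mice, at 0.11 and 0.18.

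The next question was whether C16 changed these genes in Tg26 mice. Of the 40 members 1 fell in C16-treated Tg26 mice against untreated Tg26 mice, Uhrf1, and none rose. Of all tested genes, 2.66% were called lower and 0.758% higher. The median log2 fold change of the members was -0.55, against -0.01 over all genes, and 37 of 40 were negative, with an unadjusted p under 0.05 in 22. Over all 16094 tested genes, the unadjusted p was under 0.05 in 1715 higher and 2411 lower genes. DESeq2 called 10 members lower (Cdc45, Chaf1b, E2f1, E2f8, Gins1, Lig1, Mcm3, Mcm5, Mcm6 and Uhrf1), and 7.57% of all tested genes. Without Tg26 replicate 1 edgeR called none of the members and 0.0491% of all genes lower, and the median was -0.21. All 3 C16-treated mice were below all 3 untreated mice in 15 members, against 15.1% of all genes. The 40 tested members summed to 291, 326 and 328 CPM in C16-treated Tg26 mice, against 630, 367 and 348 CPM in untreated Tg26 mice. The treated range lay below the untreated one, with the lower untreated mice only just above it.

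Uhrf1 had 3.17, 3.39 and 3.74 CPM in C16-treated Tg26 mice, against 28.3, 9.28 and 6.44 CPM in untreated Tg26 mice. The treated mice were close to each other and below every untreated Tg26 mouse. The log2 fold change was -2.10 ± 0.49 (adjusted p = 0.045), and -1.19 (adjusted p = 0.13) without Tg26 replicate 1. The call was also lost without any of the 3 treated libraries. E2f8 (-1.80, adjusted p = 0.056), Mcm5 (-1.63, adjusted p = 0.057), Mcm3 (-1.33, adjusted p = 0.069), Gins1 (-0.96, adjusted p = 0.070) and Mcm6 (-1.69, adjusted p = 0.074) missed the threshold in the same direction. Mcm6 had 4.15, 4.39 and 4.85 CPM in C16-treated Tg26 mice, against 26.1, 9.42 and 7.51 CPM in untreated Tg26 mice. Its ranges did not overlap. Mcm10, the member with the highest log2 fold change in this comparison, ran the other way, with 10.6, 6.62 and 8.93 CPM in C16-treated Tg26 mice, against 6.54, 5.81 and 3.42 CPM in untreated Tg26 mice (0.72 ± 0.25, adjusted p = 0.10). This comparison and that of Tg26 with WT mice share the untreated Tg26 libraries, so the mirrored values are not independent. Of the 30 mitosis genes 1 fell with C16, Ccnb2 (-1.36, adjusted p = 0.049), and the median was -1.33. Without Tg26 replicate 1 none fell, Ccnb2 was at -0.94 (adjusted p = 0.18) and the median was -0.81. In the same comparison Timeless fell by 0.92 (adjusted p = 0.038) and Orc3 rose by 0.44 (adjusted p = 0.030) on the log2 scale. Both calls were lost without Tg26 replicate 1, with an adjusted p of 0.11 for Timeless and 0.076 for Orc3. The macrophage markers summed to 285, 446 and 575 CPM in C16-treated Tg26 mice, and their part in these differences was not tested.

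In WT mice no member was called with C16 by edgeR, and 0% of all tested genes were. The unadjusted p was under 0.05 in 3 members, and the median log2 fold change was -0.22, with 34 of 40 negative. Over all 16094 tested genes, the unadjusted p was under 0.05 in 531 higher and 668 lower genes. DESeq2 and limma-voom each called 1 member, Gins2, lower, and in either direction they called 0.211% (DESeq2) and 0.267% (limma-voom) of all genes. Gins2 had 18.3, 18.5 and 16.5 CPM in C16-treated WT mice, against 23.3, 30.0 and 25.8 CPM in untreated WT mice. The ranges lay apart, with a log2 fold change of -0.57 ± 0.12, an unadjusted p of 0.00047 and an adjusted p of 0.53 by edgeR. In C16-treated Tg26 mice Gins2 had 18.7, 20.4 and 18.0 CPM, against 27.2, 21.4 and 23.2 CPM in untreated Tg26 mice (-0.33 ± 0.12, adjusted p = 0.11). These comparisons share no library, and in both every treated mouse was below every untreated one. The same held for Gins1 and E2f8. With C16 in WT mice 4 of 40 members lay wholly below (Cdc6, E2f8, Gins1 and Gins2), against 7.96% of all tested genes. In Tg26 mice 15 of 40 did, Cdc6 not among them, against 15.1% of all tested genes. The share of all genes wholly below in both comparisons was not counted, so the shared members cannot be set against it. Gins2 overlaps exons of Gse1 on the opposite strand, and whether the counting used strand is not given in the sources used here. The other members with an unadjusted p under 0.05 were Gins1 (-0.77) and E2f8 (-1.34).

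C16-treated Tg26 mice were also set against WT mice and against C16-treated WT mice. In neither comparison was a member called higher by edgeR, DESeq2 or limma-voom, and 1.35% and 0.69% of all tested genes were called higher by edgeR. Against WT mice the shares called higher were 3.59% by DESeq2 and 6.45% by limma-voom, and against C16-treated WT mice 2.29% by DESeq2 and 2.09% by limma-voom. By edgeR 0 members were called lower in either comparison, against 0.236% and 0.00621% of all tested genes. Members called lower by DESeq2 or limma-voom were not counted here. Against WT mice 1 member had an unadjusted p under 0.05, Gins2 (-0.47, adjusted p = 0.073), and the median log2 fold change was -0.03. Over all 16094 tested genes, 1664 higher and 1107 lower genes had an unadjusted p under 0.05. Against C16-treated WT mice 0 members had one, the median was 0.16 and the highest was 1.21, for Ccne1. There, 1268 higher and 224 lower genes of all those tested had one. The summed level was 291 to 328 CPM in C16-treated Tg26 mice, 267 to 322 CPM in C16-treated WT mice and 282 to 381 CPM in WT mice, so the ranges overlapped. A p that misses the threshold does not show that these groups are alike.

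Whether C16 acted differently in the genotypes was tested as the interaction of genotype and C16. No member was called by edgeR, DESeq2 or limma-voom, and 0% of all tested genes were called by edgeR, 0.982% by DESeq2 and 0.0124% by limma-voom. The median was -0.28, and the unadjusted p was under 0.05 in 2 members, Uhrf1 and Mcm3. Over all 16094 tested genes, the unadjusted p was under 0.05 in 768 with a positive and 1279 with a negative interaction. The interaction was -1.94 ± 0.70 (adjusted p = 0.32) for Uhrf1 and -1.30 ± 0.56 (adjusted p = 0.38) for Mcm3. With 3 mice per group, a difference of the C16 response between genotypes was not shown for any member.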

How the data were processed

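The authors' reads were written with bcl2fastq (2.17), trimmed with Cutadapt (1.18), mapped to mm10 by STAR (2.7.0f) and assigned to Ensembl 96 genes by RSEM (1.3.1). The authors deposited the expected counts of RSEM without normalization, as whole numbers, so rounding changed none. The authors compared groups with DESeq2. Whether RSEM used strand is not given in the sources used here.

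Genes passing edgeR's filterByExpr (a count of about 10 in 3 libraries and a total of 15) were tested with edgeR 4.0.16 in R 4.3.3 over the 4 groups, with TMM factors and no covariate. Alternatives were DESeq2 1.42.0, limma-voom (limma 3.58.1) with quality weights, upper-quartile or RLE factors, unscaled library sizes, 2 other filters on low counts, a replicate block, Y-linked expression as covariate, fits restricted to the groups compared, and each library left out. The fitting code was tested on simulated data. The labels number the replicates without saying more of their source, so p-values measure the spread between these samples. No library duplicated another.

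The members and lists were chosen with earlier results of these data known. Named with values per library are the 2 members of each role with the smallest adjusted p in Tg26 against WT mice, every member called in any comparison and the members with the extreme fold changes. Pcna and the untested Orc1 are given outside this rule. Mcm6 and Gins2 with C16, E2f1 and Mki67, and genes that just missed, include choices made after the values were seen. Of the other lists, up to 4 genes with the smallest adjusted p and those passing in the other direction are named. The values of 1 gene that this rule selects are not reported here. Promoters come from RefSeq and gene positions from GENCODE M21. Pseudogene copies with 95% identity over 80% of their length held at most 0.204% of the counts of a member and its copy. Exons of 15 members overlap another gene, mostly on the opposite strand (Lig1, E2f8, Fen1 and Mcm7 among them), and their counts are uncertain to that extent. Figures were drawn with matplotlib 3.10.9.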

Additional observations from a re-analysis of the deposited data

How the results depend on the processing

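For Tg26 against WT mice, 10 members were called higher. The count was 18 with library sizes only, 6 with limma-voom, 3 with the replicate block, 0 with the Y-linked covariate and 1 in a fit of only these groups, and 10 to 12 with RLE or upper-quartile factors, DESeq2 or another filter. Leaving out 1 library gave 2 to 16: 2 without WT replicate 1 or Tg26 replicate 1, 4 without WT replicate 2, 5 without WT replicate 3 and 16 without Tg26 replicate 3. Library sizes only moved the median of all genes to 0.29 and that of the members to 0.79. Of all tested genes, 15.7% were called higher in the main fit, 16.9% with DESeq2, 16% with limma-voom and 10.3% without Tg26 replicate 1. Shares under the other settings are not given here, so those counts cannot be set against all genes. Members called lower were Mcm10 with DESeq2, the block, the Y-linked covariate and without WT replicate 3, and Gins2 and Tk1 with limma-voom. The Y-linked genes summed to 114 CPM in Tg26 replicate 1, the lowest of the 12 libraries, and up to 191 CPM, so the covariate overlaps with genotype.

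For C16-treated against untreated Tg26 mice, 1 member was called lower. The count was 3 with library sizes only, 10 with DESeq2, 6 with no filter, and 0 with the replicate block, the Y-linked covariate or only these groups. Leaving out 1 library gave 0 to 8: 0 without Tg26 replicate 1 or any treated library, 4 without Tg26 replicate 2 and 8 without Tg26 replicate 3. Of all tested genes, 2.66% were called lower in the main fit, 7.57% with DESeq2 and 0.0491% without Tg26 replicate 1. Shares under the other settings are not given here either. For C16 in WT mice the count was 0, and 1 with DESeq2 or limma-voom. For the interaction it was 0 under every alternative run. For C16-treated Tg26 mice against WT mice and against C16-treated WT mice, 0 members were called higher under every alternative run. Members called lower in those 2 comparisons were not counted under the alternatives. No called member changed direction. The cause of these differences was not tested.

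After group means were removed, correlations of same-numbered libraries ran from -0.227 to 0.234. Differently numbered libraries were not correlated for reference, so whether the numbers pair the mice was not tested. The 10 members called had 0.186 to 41.9 CPM per library, and at the low end depth limits the precision.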
